A study of Arabidopsis thaliana with 27 samples.

Results

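The change over time in the radicle and hypocotyl (RAD) of dormant (D) seeds was followed by comparing 24 with 3 hours after sowing (HAS). The comparison took the 3 arrays of D RAD at 24 HAS and the 3 arrays of D RAD at 3 HAS, which are 6 of the 27 arrays in the series, and every one of the 21313 genes on them. Membership thus rested on the sample labels alone and on no measured value. Seeds were of Arabidopsis thaliana accession CVI, harvested from plants grown in 3 replicates on rockwool with nutrient solution, and were imbibed in water for 24 or 3 h before the RAD was cut out. They were freshly harvested and not after-ripened, and both groups were dormant. The series further holds the D RAD at 7 and 12 HAS, the micropylar and chalazal endosperm (MCE) of the same times, and whole dry seeds, with 3 arrays each. RNA of every RAD sample was isolated with a Nanoprep kit, whereas RNA of the MCE and the dry seeds came from a hot borate method. Isolation method and compartment therefore cannot be told apart, while the comparison of 24 with 3 HAS within the RAD lies inside 1 method.

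An imbibed seed takes up water and resumes respiration, transcription and translation whether it is dormant or not. Completion of germination needs elongation of the cells of the radicle and lower hypocotyl, which loosen their walls and push through the endosperm and the seed coat. Abscisic acid (ABA) keeps the dormant embryo from this step and gibberellins promote it. The embryo also carries reserves of protein and oil, laid down with late embryogenesis abundant (LEA) proteins during maturation, and messenger RNA stored since then.

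Values are log2 expression values after robust multi-array averaging (RMA), and a mean under 5 was taken as not expressed. Over all genes the Pearson correlation between replicate arrays was between 0.989 and 0.993, against 0.944 to 0.957 between arrays of 24 and 3 HAS. Genes are not independent replicates, and these values describe the arrays only. The array medians were between 4.81 and 4.848 at 24 HAS and between 4.643 and 4.661 at 3 HAS, and the median difference over all genes was -0.041. Centring every array on its median moved this to -0.217, and every difference below is given on the deposited scale, without that shift. Nothing in the labels states that the array number follows the plant replicate, so the p-values measure the spread between these arrays. In tissue samples, fewer cells of a type and less RNA per cell cannot be told apart.

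The labelled tissue was checked against its marker genes. Of 15 markers of radicle and hypocotyl cells, 9 had a mean above 5 at 24 HAS and 6 at 3 HAS, and 12 were higher and 1 was lower at 24 HAS with an adjusted p under 0.05 (limma, Benjamini-Hochberg over all genes). The summed level of these markers was between 10.27 and 10.32 (log2) on the arrays of 24 HAS and between 9.34 and 9.51 on those of 3 HAS, without overlap. MYB66 (AT5G14750, WEREWOLF), which specifies hairless epidermal cells of the root, was at 5.62, 5.99 and 5.97 at 24 HAS, against 3.42, 3.38 and 3.23 at 3 HAS. The root cap factor SMB (AT1G79580) had 5.30, 5.49 and 5.25 at 24 HAS, against 3.2, 3.17 and 4.01 at 3 HAS. Both were under the threshold for expressed genes at 3 HAS and over it at 24 HAS. PLT1, PLT2 and FEZ stayed under 5 on the mean of both times. SCR (AT3G54220), a factor of the endodermis, was the marker that fell, though not without D RAD 3 HAS replicate 3, with 7.69, 7.75 and 7.67 at 24 HAS, against 8.03, 8.16 and 8.33 at 3 HAS. Markers of the cotyledons and the shoot apex were above 5 for 1 of 7 genes at both times, with a summed level between 7.19 and 7.32 at 24 HAS and between 6.66 and 6.78 at 3 HAS. That gene was KNAT1 (AT4G08150), which was at 6.47, 6.37 and 6.56 at 24 HAS, against 4.92, 4.96 and 5.15 at 3 HAS, while STM, WUS, CUC1 and CUC2 stayed under 5. None of the 5 markers of endosperm and seed coat was above 5 at either time, and their summed level was between 6.23 and 6.43 at 24 HAS and between 6.2 and 6.55 at 3 HAS. These 5 markers were also all under 5 on the mean in the MCE at 24 and 3 HAS and in dry seeds. They therefore cannot show whether endosperm was present in the RAD samples. The part of the radicle and shoot markers in the results below was not tested.

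A gene was called 3-fold changed when its group means, raised to 4 where they were lower, lay at least 3-fold apart, with an adjusted p under 0.05 in limma fitted to all 27 arrays. By this rule 563 genes were higher at 24 HAS than at 3 HAS, which is 2.64% of all genes tested, and 279 genes were lower, which is 1.31%. At 10-fold these numbers were 26 and 23. Without a fold rule, 4328 genes were higher (20.3%) and 3822 were lower (17.9%) at an adjusted p under 0.05. The split depended on scaling: higher genes made up 66.9% of the 3-fold calls on the deposited scale and 49.6% after centring, and 53.1% and 31.7% of the calls at any fold. Of the 3-fold increases, 248 had a mean under 5 at 3 HAS, so that their fold is limited by the noise of the array, and of the decreases 64 had a mean under 5 at 24 HAS. All 3 arrays of one time lay above all 3 of the other for 561 of the 563 increases and for all 279 decreases, against 46.2% of all genes on the array. The genes were called on these same arrays, so their separation follows largely from the choice and is no test.

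The 15 largest increases and the 15 largest decreases were taken among 3-fold calls without overlap of arrays. The increases are described by what the gene is known to do, and not in the order of size. XTH15 (AT4G14130), a xyloglucan endotransglucosylase/hydrolase that cuts and rejoins the xyloglucan of the wall, was at 10.60, 9.88 and 10.61 at 24 HAS, against 4.91, 4.94 and 4.74 at 3 HAS. The difference was 5.50 on the log2 scale, or 45.2-fold, with a standard error of 0.28 (limma, adjusted p = 6.79e-14). XYL1 (AT1G68560), an alpha-xylosidase that trims xyloglucan, had 8.10, 8.82 and 8.10 at 24 HAS, against 4.66, 3.94 and 4.61 at 3 HAS. The arabinogalactan protein AGP31 (AT1G28290) had 8.30, 8.95 and 9.29 at 24 HAS, against 3.23, 3.19 and 3.51 at 3 HAS. All of these were under 5 on every array of 3 HAS. The alpha-tubulin TUA6 (AT4G14960) was at 8.89, 9.55 and 9.10 at 24 HAS, against 3.65, 3.85 and 3.39 at 3 HAS, and TUA2 (AT1G50010) at 8.94, 9.69 and 9.50, against 4.45, 4.56 and 4.69. SHD (AT4G24190), the HSP90 chaperone of the endoplasmic reticulum (ER), was at 8.18, 7.97 and 8.84 at 24 HAS, against 3.69, 3.48 and 4.05 at 3 HAS.

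FAD3 (AT2G29980), the desaturase that makes linolenic acid in the ER, was at 8.29, 8.90 and 8.67 at 24 HAS, against 4.55, 4.63 and 5.06 at 3 HAS. Methionine synthase MS2 (AT3G03780) had 8.04, 8.25 and 8.16 at 24 HAS, against 3.93, 4.38 and 4.53 at 3 HAS. NRT1.1 (AT1G12110), a nitrate transporter and sensor, was at 8.88, 8.22 and 8.70 at 24 HAS, against 4.92, 4.67 and 4.79 at 3 HAS. In each of these the lowest array of 24 HAS was above the highest array of 3 HAS by more than 3 log2 units. The purple acid phosphatase PAP10 (AT2G16430) rose by 3.76 with a standard error of 0.219 (limma, adjusted p = 6.28e-13). AT5G14450, AT5G01210, AT4G01610, AT5G20950 and AT3G14220, which the reference table lists without a name, completed the 15 largest increases with differences (log2) of 5.37, 4.30, 4.14, 4.09 and 3.72. AT4G01610, AT3G14220 and AT5G20950 were above 5 on every array of 3 HAS and thus were expressed at both times.

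The 15 largest decreases included genes known to be induced by low oxygen and genes of nitrate use. AT3G10040, listed in the reference under the synonym HRA1 (hypoxia response attenuator), was at 4.76, 4.26 and 4.39 at 24 HAS, against 10.27, 9.76 and 10.18 at 3 HAS. The difference was -5.60 on the log2 scale, with a standard error of 0.257 (limma, adjusted p = 8.66e-15), so that the level was 48.5-fold higher at 3 HAS. LBD41 (AT3G02550), a transcription factor with a LOB domain, had 6.97, 7.48 and 7.13 at 24 HAS, against 11.69, 11.87 and 11.98 at 3 HAS. SRO5 (AT5G62520) had 7.09, 7.01 and 7.29 at 24 HAS, against 11.57, 11.30 and 11.51 at 3 HAS. All 3 genes are on the list of core hypoxia-response genes. AT4G10270 was entered for this list too, but was left out because it has no name in the reference. It was at 5.51, 6.65 and 6.01 at 24 HAS, against 11.48, 11.45 and 11.56 at 3 HAS.

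NRT1.8 (AT4G21680), a nitrate transporter that takes nitrate out of the xylem, was at 7.49, 7.87 and 7.5 at 24 HAS, against a mean of 12.35 with an SD of 0.13 at 3 HAS. Nitrite reductase NIR1 (AT2G15620) had 7.70, 7.78 and 6.90 at 24 HAS, against 11.16, 11.14 and 11.43 at 3 HAS. Both stayed above the threshold for expressed genes at 24 HAS. OST1 (AT4G33950), a protein kinase of ABA signalling, was at 3.43, 3.44 and 3.35 at 24 HAS, against 7.92, 7.81 and 7.63 at 3 HAS, and thus went under the threshold on all arrays of 24 HAS. UGT74F2 (AT2G43820), which attaches glucose to salicylic acid, was at 5.63, 5.97 and 5.33 at 24 HAS, against 9.94, 9.64 and 9.93 at 3 HAS. PIRL8 (AT4G26050), a leucine-rich repeat protein, had a log2 fold change of -4.45. The trehalose-6-phosphate phosphatase TPPJ (AT5G65140) had one of -4.30, and the beta-glucosidase DIN2 (AT3G60140) one of -4.22. AT5G39520, AT3G27220, AT1G72430 (SAUR78 among its synonyms) and AT5G66985 had log2 fold changes of -4.17, -4.12, -4.06 and -3.83, and no arrays of the 2 times overlapped in any of them.

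**Figure D1:**
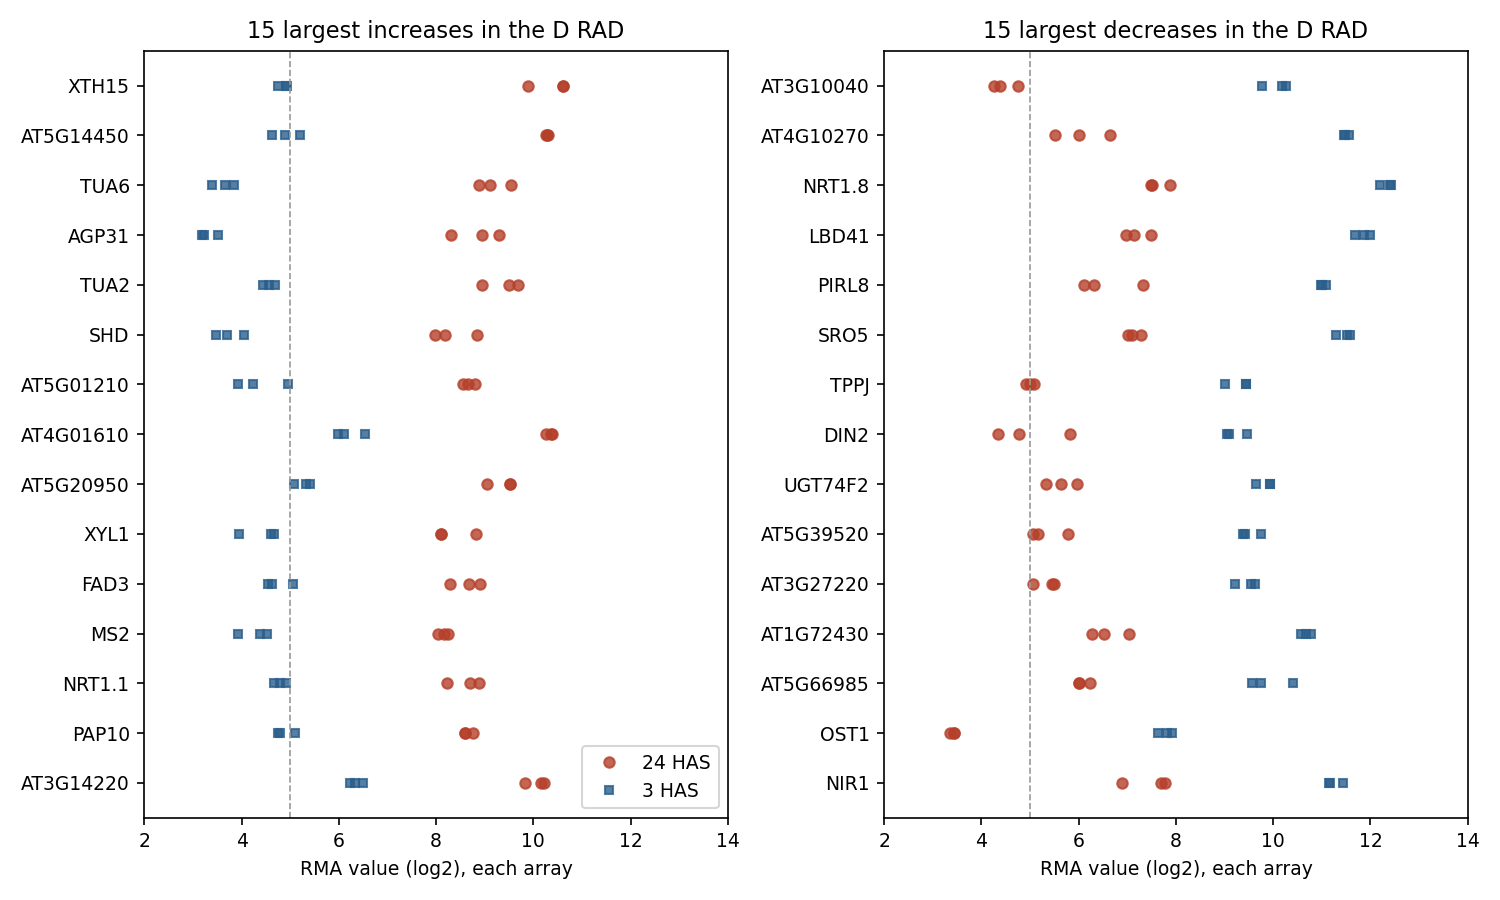
RMA values (log2) of the 15 genes with the largest increase (left) and the 15 with the largest decrease (right) in the D RAD, on each of the 3 arrays at 24 HAS (circles) and at 3 HAS (squares); the dashed line marks 5. The values of the 2 times do not overlap in any of the 30 genes, which was a condition of their choice. XTH15 lay between 9.88 and 10.61 at 24 HAS, against 4.74 to 4.94 at 3 HAS.

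Genes were then grouped by function in 58 lists, and each list is described by how many members had an adjusted p under 0.05 in each direction (limma, over all genes), beside the 20.3% and 17.9% of all genes. Counts of 2 or fewer members in a direction moved by at most 1 when a single array was left out, and larger counts that moved by over 1.5 times are given with the array. In lists described below with no member in a direction, no member had an unadjusted p under 0.05 in limma in that direction, and none was called by the methods' t-test after Benjamini-Hochberg. The reference table had no name for 48 further entries on the array, which were left out of the lists. Of these, 4 were higher and 26 were lower. In wall loosening, few members of large families were expressed. Among 20 alpha-expansins, proteins that let wall polymers slide, 6 had a mean above 5 at 24 or 3 HAS, 5 rose and 3 fell. EXPA1 (AT1G69530) was at 5.94, 6.73 and 5.70 at 24 HAS, against 2.85, 2.93 and 2.84 at 3 HAS. EXPA20 (AT4G38210) had 7.58, 7.94 and 7.67 at 24 HAS, against 5.01, 5.09 and 5.72 at 3 HAS, and EXPA4 (AT2G39700) rose by 2.02. EXPA13 (AT3G03220), which is expressed at both times, fell by 0.87. The 3 lower expansins were 1 without D RAD 24 HAS replicate 3, without D RAD 3 HAS replicate 2 or without D RAD 3 HAS replicate 3.

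The XTH family had 5 members higher and 6 lower of 30 (5 and 11 after centring), and 7 were above 5. The lower members were 3 without D RAD 24 HAS replicate 3 or without D RAD 3 HAS replicate 2. Beside XTH15, XTH19 (AT4G30290) was at 7.06, 6.96 and 7.54 at 24 HAS, against 3.3, 3.15 and 3.04 at 3 HAS. XTH4 (AT2G06850) rose by 1.57. XTH25 (AT5G57550) had 11.42, 10.53 and 10.70 at 24 HAS, against 12.67, 12.68 and 12.40 at 3 HAS. XTH31 (AT3G44990, XTR8), a gene the study names, had 3.02, 2.98 and 3.01 at 24 HAS, against 3.27, 3.32 and 3.32 at 3 HAS, and its difference did not pass the test (limma, adjusted p = 0.114). Of 29 genes of pectin modification, 5 rose and 2 fell (4 and 7 after centring). The pectin methylesterase PME3 (AT3G14310), which removes methyl groups from pectin, was at 6.55, 6.73 and 6.29 at 24 HAS, against 4.13, 4.68 and 5.11 at 3 HAS. AT2G26440 (PME12 among its synonyms) was at 6.77, 7.09 and 6.79, against 3.96, 3.58 and 4.28. For the cellulose synthases 1 of 11 was higher and 1 lower on the deposited scale, and none was higher and 2 were lower after centring.

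Tubulins, the building blocks of microtubules, had 8 of 11 members higher and 1 lower, with a median difference of 0.62 over the list. TUA4 (AT1G04820) was at 7.41, 8.07 and 8.05 at 24 HAS, against 4.09, 4.09 and 4.51 at 3 HAS, and TUB6 (AT5G12250) rose by 1.96. TUB4 (AT5G44340) rose by 1.54. TUA1 (AT1G64740) fell by 0.43, a call that was lost without either of 2 arrays at 24 HAS (replicates 1 and 3) or either of 2 at 3 HAS (replicates 2 and 3). TUA2 and TUA4 encode near-identical proteins, and whether their probes tell them apart was not tested. Among 11 actins and profilins 5 rose and none fell on the deposited scale, and after centring of the arrays 3 rose and 3 fell. The 5 higher members were 3 without D RAD 24 HAS replicate 2. The profilin PRF3 (AT5G56600) was at 8.53, 8.5 and 8.27 at 24 HAS, against 6.50, 6.45 and 6.97 at 3 HAS.

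Genes of DNA replication were higher for 9 of 13 members and lower for 1, with a median difference of 1.44. PCNA1 (AT1G07370) and PCNA2 (AT2G29570) encode the sliding clamp of the replication fork. PCNA2 had 7.34, 8.07 and 7.56 at 24 HAS, against 4.78, 5.03 and 5.22 at 3 HAS, and PCNA1 was at 5.21, 5.95 and 6.0, against 3.36, 3.87 and 3.45. The ribonucleotide reductase subunits RNR1 (AT2G21790) and TSO2 (AT3G27060), which supply deoxynucleotides, rose by 2.0 and 2.18. CDC45 (AT3G25100), a part of the replicative helicase, was the member that fell, by 0.78.

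Regulators of the cell cycle changed by less than 3-fold. Of 19 cyclins, cyclin-dependent kinases and their inhibitors 9 rose and none fell (6 and 1 after centring), and 7 were above 5. CDC2 (AT3G48750), the kinase CDKA;1 of both the G1 and the G2 phase, was at 9.05, 8.93 and 8.81 at 24 HAS, against 7.41, 7.47 and 7.66 at 3 HAS. CDKB2;1 (AT1G76540), a kinase of mitosis, had 5.04, 5.34 and 6.11 at 24 HAS, against 4.26, 3.94 and 4.3 at 3 HAS. CDKB2;2 (AT1G20930) had 5.05, 5.82 and 5.46 at 24 HAS, against 4.57, 4.65 and 4.46 at 3 HAS. Thus both were above the threshold for expressed genes at 24 HAS only. Core histones were higher for 13 of 22 and lower for 3. The histone variant H2A.Z gene HTA8 (AT2G38810) had 7.31, 8.02 and 7.84 at 24 HAS, against 4.06, 4.01 and 4.38 at 3 HAS, and HTA11 (AT3G54560), also H2A.Z, rose by 2.77. HTA9 (AT1G52740), of the same variant, was between 11.27 and 11.43 at 24 HAS and between 11.33 and 11.45 at 3 HAS. HTA13 (AT3G20670) fell by 1.0.

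Of 33 genes for cytosolic ribosomal proteins 30 were higher, none was lower and 8 had risen 3-fold, and the median difference was 1.32 on the deposited scale and 1.14 after centring. RPL24A (AT2G36620) was at 11.39, 11.63 and 11.68 at 24 HAS, against 8.93, 8.56 and 9.23 at 3 HAS. RPL16A (AT2G42740) had 8.99, 9.16 and 8.99 at 24 HAS, against 7.02, 6.94 and 6.88 at 3 HAS. SAC52 (AT1G14320, ribosomal protein L10) rose by 1.07. The arrays of the 2 times did not overlap in these genes. For ribosomal proteins of plastids and mitochondria 14 of 27 were higher and 1 was lower (11 and 5 after centring).

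Factors that assemble ribosomes in the nucleolus were higher for 9 of 16 and lower for 2. These counts were 6 and 2 after quantile normalization and 5 and 2 after centring. FIB2 (AT4G25630), a fibrillarin that methylates ribosomal RNA, rose by 1.82, and SWA1 (AT2G47990) fell by 0.89. Translation factors were mixed, with 8 of 22 higher and 4 lower (7 and 6 after centring). EIF4A1 (AT3G13920), the helicase of initiation, rose by 0.64, whereas eIFiso4G2 (AT2G24050) and EIF4B1 (AT3G26400), also of initiation, fell by 1.45 and 1.37. Subunits of the 26S proteasome, which degrades tagged proteins, were higher for 18 of 33 and lower for 2. PBD2 (AT4G14800) was at 9.52, 9.70 and 9.31 at 24 HAS, against 7.96, 8.18 and 8.47 at 3 HAS. The proteasome activator PA200 (AT3G13330) and the ATPase subunit RPT3 (AT5G58290) fell by 0.81 and 0.60.

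Chaperones of the ER and those of heat stress moved in opposite directions. In the ER list 9 of 11 members rose, 8 of them 3-fold, and 1 fell, with a median difference of 2.59. These proteins fold secreted proteins and those of the membranes. Beside SHD, the calreticulin CRT1a (AT1G56340) was at 7.62, 7.74 and 8.46 at 24 HAS, against 4.56, 4.14 and 4.66 at 3 HAS. The protein disulfide isomerase PDIL1-1 (AT1G21750) had 8.31, 8.21 and 8.26 at 24 HAS, against 5.62, 4.97 and 5.68 at 3 HAS. Calnexin CNX1 (AT5G61790) was at 9.18, 8.96 and 9.36, against 6.47, 6.28 and 6.99. The arrays of the 2 times did not overlap in any of these. ATERDJ3A (AT3G08970), a J-domain partner of ER HSP70, was the exception, with 5.01, 4.8 and 4.9 at 24 HAS, against 5.56, 5.52 and 6.03 at 3 HAS.

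Of 16 heat shock proteins and their partners, mostly of the cytosol and with ATHSP22.0 of the ER among them, 10 fell, 7 of them 3-fold, and 1 rose. Hsp70b (AT1G16030) was at 8.36, 7.76 and 7.63 at 24 HAS, against 10.48, 10.49 and 10.60 at 3 HAS. HSP90.1 (AT5G52640) had 8.94, 8.57 and 8.25 at 24 HAS, against 10.99, 10.72 and 10.83 at 3 HAS. Small heat shock proteins, which hold unfolded proteins, included HSP17.6A (AT5G12030), at 12.19, 11.47 and 11.34 at 24 HAS, against 13.14, 13.05 and 13.23 at 3 HAS. The member that rose was HSC70-1 (AT5G02500), the HSP70 made without stress, with 13.36, 13.59 and 13.58, against 12.53, 12.70 and 12.86. Among 13 heat shock factors, 1 was higher and 5 were lower. HSFA2 (AT2G26150), which sustains the heat response, had 4.96, 5.03 and 4.23 at 24 HAS, against 7.37, 7.65 and 8.20 at 3 HAS. HSFB4 (AT1G46264), a factor of the root tip, had 6.41, 6.41 and 6.71 at 24 HAS, against 4.46, 4.23 and 5.03 at 3 HAS.

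**Figure D2:**
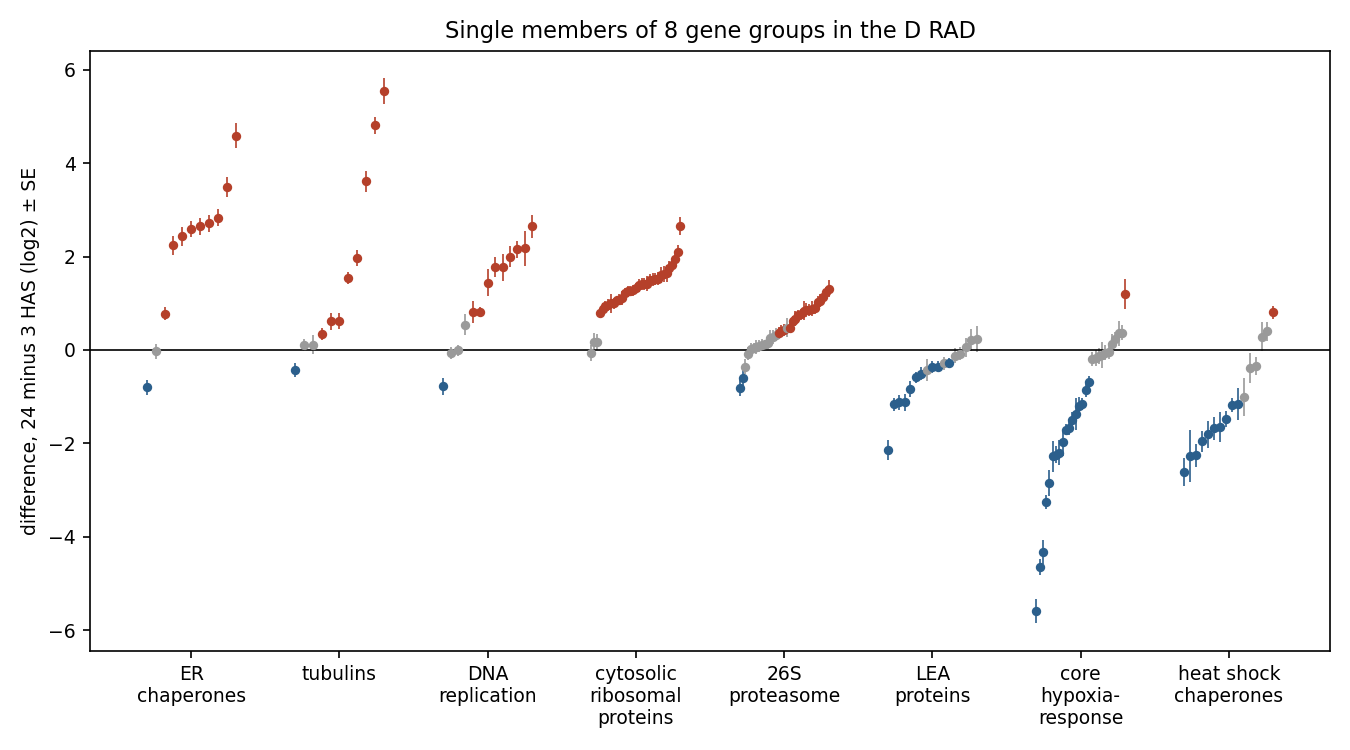
Difference between 24 and 3 HAS in the D RAD (log2, 24 minus 3 HAS) with its standard error for every listed member of 8 gene groups; red, higher and blue, lower at an adjusted p under 0.05; grey, not past the test. Members of the ER chaperones reach 4.59 while the heat shock chaperones reach -2.61, and the core hypoxia-response genes extend to -5.60.

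The core hypoxia-response genes, which plants induce at low oxygen in most cell types, were lower at 24 HAS for 17 of 28 members, 10 of them 3-fold, and higher for 1, with a median difference of -1.19. Another 15 genes of this kind without a name were left out of the list, and 14 of them were lower. AT5G39890 (PCO2 among its synonyms), a plant cysteine oxidase that senses oxygen, was at 6.77, 7.04 and 6.80 at 24 HAS, against 9.99, 10.06 and 10.33 at 3 HAS. Enzymes of fermentation were among them. ADH1 (AT1G77120), alcohol dehydrogenase, had 10.44, 10.42 and 10.14 at 24 HAS, against a mean of 12.05 with an SD of 0.14 at 3 HAS. PDC2 (AT5G54960), pyruvate decarboxylase, fell by 1.16. The ABA 8'-hydroxylase gene CYP707A3 (AT5G45340), which is on this list too, was the one that rose, with 8.12, 7.53 and 8.59 at 24 HAS, against 6.94, 7.16 and 6.54 at 3 HAS. The mean of AT3G10040 in dry seeds was 5.15 and that of LBD41 7.05, both more than 4 log2 units under their means at 3 HAS, whereas ADH1 was at 12.08 in dry seeds. Dry seeds were whole and were extracted by the hot borate method, so these values are given without a test.

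Of 19 genes of nitrate transport and assimilation 5 rose and 5 fell, 7 of these 10 by 3-fold, against shares of 2.64% and 1.31% over all genes. The seed nitrate transporter NRT2.7 (AT5G14570), which loads nitrate into the vacuole, was at 8.66, 8.61 and 8.29 at 24 HAS, against 10.94, 10.69 and 10.80 at 3 HAS. Asparagine synthetase ASN1 (AT3G47340) had 9.78, 9.56 and 9.46 at 24 HAS, against 11.60, 11.33 and 11.25 at 3 HAS. Its relative ASN2 (AT5G65010) went the other way, with 6.75, 6.85 and 6.59, against 4.72, 4.65 and 4.65. Glutamate dehydrogenase GDH1 (AT5G18170) was at 9.55, 8.84 and 9.17 at 24 HAS, against 6.49, 6.72 and 6.51 at 3 HAS. Thus NRT1.1, ASN2 and GDH1 were higher while NRT1.8, NRT2.7, NIR1 and ASN1 were lower.

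Transcripts of the reserves of the mature seed were lower for part of each list. Of 9 seed storage protein genes 5 fell and none rose, with a median difference of -0.29 on the deposited scale and -0.07 after quantile normalization, where 3 fell. CRA1 (AT5G44120), a cruciferin, was at 14.07 on every array of 24 HAS and between 13.96 and 14.03 at 3 HAS, and its difference did not pass the test (limma, adjusted p = 0.531). The albumin gene SESA4 (AT4G27170) was the one to fall 3-fold, with 9.77, 9.69 and 9.11 at 24 HAS, against 11.77, 11.67 and 11.65 at 3 HAS. Albumin genes lie beside each other and resemble each other in sequence, and whether the probes tell them apart was not tested. Of 10 oil body proteins 5 fell and 1 rose. ATS1 (AT4G26740), a caleosin of the oil body, fell by 1.42 and the oil body lipase SDP1 (AT5G04040) by 0.94, while the oleosin OLEO3 (AT5G51210) rose by 0.76. The oleosins OLEO1, OLEO2 and OLEO4 were above 13 at both times and differed by -0.12, -0.13 and -0.14, none past the test.

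LEA proteins, which protect cells during drying, fell for 10 of 17 members and rose for none, with a median difference of -0.36, and of 12 genes left out for want of a name 6 were lower. The dehydrin LTI30 (AT3G50970) was at 9.77, 9.25 and 9.11 at 24 HAS, against 11.81, 11.33 and 11.45 at 3 HAS. M10 (AT2G41280) and AtLEA4-1 (AT1G32560) fell by 1.16 and 1.12. EM1 (AT3G51810) was between 13.45 and 13.5 at 24 HAS and between 13.49 and 13.64 at 3 HAS, so that its arrays overlapped. High levels of storage and LEA transcripts were thus present at both times.

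Among 19 regulators of seed maturation and dormancy 3 rose and 4 fell (3 and 8 after centring). DOG1 (AT5G45830), a main determinant of dormancy, was at 5.79, 5.48 and 4.96 at 24 HAS, against 7.16, 7.59 and 7.2 at 3 HAS. It fell by 1.91 with a standard error of 0.198 (limma, adjusted p = 1.53e-08). ABI5 (AT2G36270), a bZIP factor of the ABA response in seeds, had 9.06, 8.59 and 8.85 at 24 HAS, against 10.20, 9.11 and 9.66 at 3 HAS. SOM (AT1G03790), a zinc finger protein that represses germination, fell by 0.71, and PIL5 (AT2G20180, PIF1), which activates SOM in the dark, rose by 0.74. MYB96 (AT5G62470), a factor of the ABA and drought response, was at 5.79, 5.25 and 5.80 at 24 HAS, against 3.96, 3.53 and 3.97 at 3 HAS.

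For ABA metabolism and transport, 5 of 19 genes rose and 4 fell (3 and 4 after quantile normalization). In synthesis, ABA1 (AT5G67030), zeaxanthin epoxidase, fell by 0.85, and ABA3 (AT1G16540), which makes the cofactor of the last step, had 4.44, 4.40 and 4.34 at 24 HAS, against 6.41, 5.55 and 6.17 at 3 HAS. NCED5 (AT1G30100), of the cleavage step, was between 7.91 and 8.0 at 24 HAS and between 7.47 and 7.72 at 3 HAS (adjusted p = 0.0614 from limma). NCED2 (AT4G18350) is named in the study among genes specific to the dormant MCE. In the RAD it was between 3.91 and 4.31 at 24 HAS and between 3.78 and 4.12 at 3 HAS, under the threshold for expressed genes. The 8'-hydroxylases, which break ABA down, differed from each other. CYP707A2 (AT2G29090) was at 7.82, 8.0 and 7.94 at 24 HAS, against 9.10, 9.29 and 9.13 at 3 HAS, whereas CYP707A3 rose by 1.2. CYP707A1 (AT4G19230) rose by 0.89, with overlapping arrays, and its call was lost after either rescaling and without D RAD 24 HAS replicate 1 or 3 or D RAD 3 HAS replicate 2. The exporter ABCG25 (AT1G71960) was at 6.93, 6.68 and 7.35 at 24 HAS, against 4.23, 3.55 and 4.75 at 3 HAS.

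ABA signalling had 3 of 25 members higher and 12 lower. Of the receptors, PYL7 (AT4G01026) and PYL2 (AT2G26040) fell by 1.5 and 1.26, while PYL4 (AT2G38310) was at 7.54, 8.24 and 7.60 at 24 HAS, against 5.03, 5.63 and 5.92 at 3 HAS, and PYR1 (AT4G17870) rose by 0.96. Of the PP2C phosphatases, which block the pathway in the absence of ABA, ABI2 (AT5G57050), HAI3 (AT2G29380) and AHG1 (AT5G51760) fell by 1.41, 1.19 and 1.03. HAI2 (AT1G07430) lay between 10.19 and 10.50 at 24 HAS and between 10.21 and 10.43 at 3 HAS. The kinase OST1 fell most in this list, as given above, and the bZIP factor ABF4 (AT3G19290) rose by 1.18.

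Gibberellin genes were split, with 9 of 29 higher and 7 lower (6 and 9 after centring), and a median of 0.15 that became -0.03 after centring. Of the DELLA repressors on this list, RGL2 (AT3G03450), RGL3 (AT5G17490) and GAI (AT1G14920) rose. The values of RGA1 (AT2G01570) and RGL1 (AT1G66350), also DELLA repressors on it, are not given here. RGL2 was at 8.07, 8.35 and 8.48 at 24 HAS, against 5.98, 6.25 and 6.79 at 3 HAS. RGL3 had 7.80, 8.13 and 8.09 at 24 HAS, against 5.88, 6.47 and 5.75 at 3 HAS. SLY1 (AT4G24210), the F-box protein that targets DELLAs for degradation, fell by 0.84. SCL3 (AT1G50420), a positive regulator of the response, was at 6.54, 6.66 and 6.87 at 24 HAS, against 9.74, 9.89 and 9.59 at 3 HAS. In synthesis, KAO2 (AT2G32440), GA3 (AT5G25900) and GA20OX3 (AT5G07200) fell by 1.25, 0.80 and 0.99, and CYP88A3 (AT1G05160, KAO1) rose by 0.74. GA2OX6 (AT1G02400), which inactivates gibberellin, is likewise named in the study among genes specific to the dormant MCE. In the RAD it was at 4.71, 4.28 and 4.25 at 24 HAS, against 3.77, 4.20 and 3.48 at 3 HAS. Its difference did not pass the test (adjusted p = 0.0729 from limma).

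In the ethylene list 7 of 19 genes fell and 2 rose. The receptor ETR2 (AT3G23150), which is also on the hypoxia list, was at 6.32, 6.12 and 6.51 at 24 HAS, against 8.07, 8.25 and 8.58 at 3 HAS. The F-box protein EBF1 (AT2G25490) and its target EIN3 (AT3G20770) fell by 1.37 and 0.95. In the brassinosteroid list 5 of 11 rose and 1 fell. DWF1 (AT3G19820), an enzyme of sterol synthesis, had a mean of 10.12 with an SD of 0.17 at 24 HAS, against 7.3, 7.12 and 7.3 at 3 HAS. The cytochrome P450 enzymes CPD (AT5G05690), ROT3 (AT4G36380) and DWF4 (AT3G50660) rose by 1.97, 1.32 and 1.24, and BAS1 (AT2G26710), which inactivates brassinosteroids, fell by 1.05.

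Of 47 auxin response genes 5 rose and 7 fell (5 and 17 after centring), and 13 were above 5. Aux/IAA repressors moved both ways: IAA8 (AT2G22670) was at 7.79, 8.17 and 8.31 at 24 HAS, against 6.36, 6.20 and 6.10 at 3 HAS, while IAA13 (AT2G33310) had 7.95, 8.13 and 7.93, against 10.08, 9.54 and 10.04. IAA2 (AT3G23030) fell by 1.85. The auxin influx carriers LAX2 (AT2G21050) and AUX1 (AT2G38120) rose by 1.79 and 1.28. The count of 7 lower genes was 3 without D RAD 3 HAS replicate 2 and 4 without D RAD 24 HAS replicate 3. In the jasmonate list 3 of 19 rose and none fell (3 and 6 after centring). AOC3 (AT3G25780), allene oxide cyclase, was at 7.89, 7.63 and 7.45 at 24 HAS, against 5.54, 6.03 and 5.65 at 3 HAS.

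**Figure D3:**
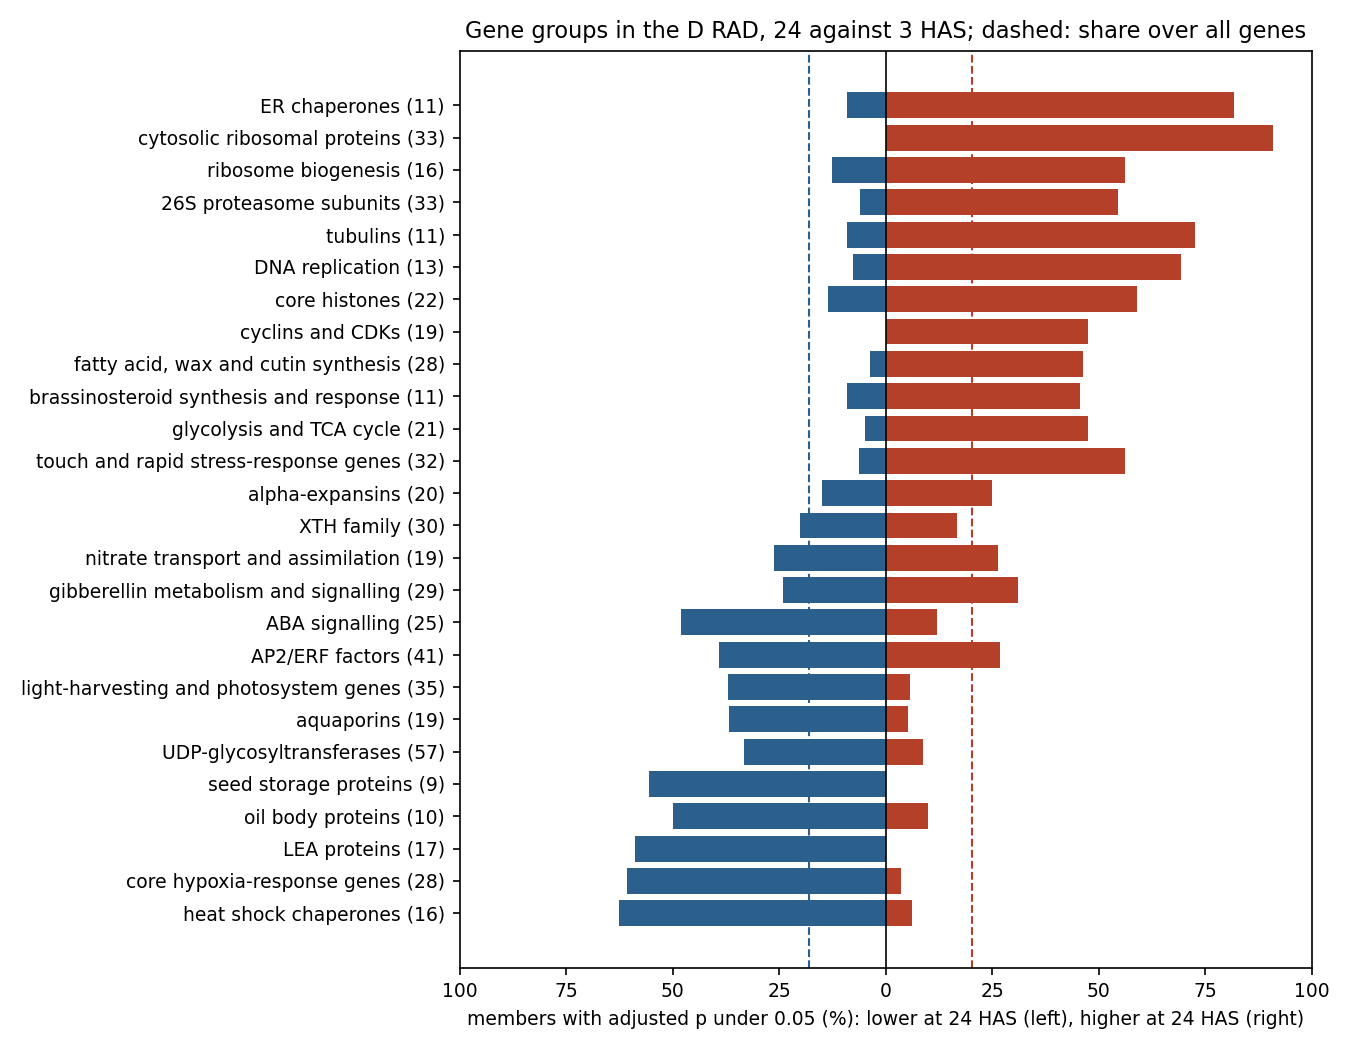
Share of the listed members, all of them with a name in the reference, of 26 gene groups (number of members in brackets) that were higher (red, right) or lower (blue, left) at 24 HAS in the D RAD at an adjusted p under 0.05. The dashed lines mark the shares over all genes, 20.3% and 17.9%. Cytosolic ribosomal proteins stand at 90.9% higher and heat shock chaperones at 62.5% lower. The group of aquaporins includes TIP1 (AT5G20350), which is not an aquaporin.

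Among transcription factors of stress responses, the AP2/ERF and WRKY families each had members in both directions. Of 41 AP2/ERF factors 11 rose and 16 fell. ERF5 (AT5G47230), of the rapid defence response, was at 7.53, 7.64 and 7.94 at 24 HAS, against 4.35, 5.10 and 4.69 at 3 HAS. ERF4 (AT3G15210), a repressor, rose by 1.69. DREB2A (AT5G05410), of the response to drought and heat, had 8.73, 8.59 and 8.72 at 24 HAS, against 10.64, 10.88 and 10.59 at 3 HAS. RAP2.10 (AT4G36900) and RAP2.1 (AT1G46768) fell by 2.64 and 2.50. Of 58 WRKY factors 7 rose and 11 fell (6 and 25 after centring), and 17 were above 5. WRKY22 (AT4G01250) was at 7.97, 7.07 and 7.87 at 24 HAS, against 4.93, 4.88 and 4.83 at 3 HAS, and WRKY40 (AT1G80840) and WRKY33 (AT2G38470) rose by 2.51 and 2.36. WRKY18 (AT4G31800), a close relative of WRKY40, went the other way, with 6.64, 6.35 and 6.53, against 8.67, 8.32 and 8.07.

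Genes induced within minutes by touch or wounding were higher for 18 of 32 and lower for 2, with 7 increases of 3-fold. ORA47 (AT1G74930), which activates jasmonate synthesis, was at 6.96, 6.51 and 6.34 at 24 HAS, against 3.72, 4.59 and 4.14 at 3 HAS. The zinc finger factor STZ (AT1G27730) had 11.20, 10.67 and 11.08 at 24 HAS, against 9.51, 10.27 and 9.86 at 3 HAS. CML38 (AT1G76650), a calmodulin-like protein on the hypoxia list as well, and WRKY18 were the members that fell. Cutting of the seed was part of sampling at both times, and its part in these levels was not tested.

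NAC factors were lower for 16 of 85 and higher for 6 (33 lower and 4 higher after centring). The bZIP factors were lower for 10 of 50 and higher for 5 (20 lower and 5 higher after centring). On the deposited scale both lower shares were near the 17.9% of all genes, and both higher shares were under the 20.3%. ATAF1 (AT1G01720) was at 10.24, 9.98 and 10.17 at 24 HAS, against 11.52, 11.81 and 11.61 at 3 HAS. TGA1 (AT5G65210), a bZIP factor of the salicylic acid and nitrate responses, had 8.06, 7.88 and 7.74 at 24 HAS, against 10.64, 10.14 and 10.33 at 3 HAS. For the large MYB family 4 of 126 rose and 11 fell (4 and 48 after centring), and 16 were above 5. The lower members were 17 without D RAD 3 HAS replicate 3. MYB109 (AT3G55730) was at 5.29, 5.11 and 5.03, against 7.32, 7.09 and 7.12. Among 24 bHLH factors 5 rose and 3 fell (4 and 6 after centring), and 3 rose without D RAD 3 HAS replicate 1. BS1 (AT1G74500, TMO7), a small factor of root initiation in the embryo, was at 8.41, 8.45 and 8.58 at 24 HAS, against 5.06, 5.19 and 5.43 at 3 HAS.

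Of 28 genes for fatty acids, waxes and cutin 13 were higher and 1 was lower. CAC2 (AT5G35360), biotin carboxylase of the first step of fatty acid synthesis, was at 7.99, 8.29 and 8.28 at 24 HAS, against 5.52, 5.08 and 5.27 at 3 HAS. MOD1 (AT2G05990), enoyl reductase of the same pathway, had 6.96, 7.29 and 6.72 at 24 HAS, against 3.87, 4.41 and 4.39 at 3 HAS, and KASI (AT5G46290) rose by 1.99. FAD2 (AT3G12120), the desaturase before FAD3, rose by 1.36. Of 16 genes of beta-oxidation and the glyoxylate cycle 5 rose and 3 fell (5 and 7 after centring). ICL (AT3G21720), isocitrate lyase, was between 13.64 and 13.70 at 24 HAS and between 13.47 and 13.5 at 3 HAS, and MLS (AT5G03860), malate synthase, between 12.67 and 12.84 and between 12.82 and 12.98. Neither passed the test (limma, adjusted p = 0.108 and 0.399).

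Glycolysis and the citric acid cycle had 10 of 21 genes higher and 1 lower (9 and 4 after centring). GAPC1 (AT3G04120), glyceraldehyde-3-phosphate dehydrogenase of the cytosol, was at 10.63, 10.95 and 10.71 at 24 HAS, against 8.66, 8.71 and 8.88 at 3 HAS. Mitochondrial malate dehydrogenase mMDH1 (AT1G53240) and aconitase ACO3 (AT2G05710) rose by 1.27 and 1.26. AOX1A (AT3G22370), the alternative oxidase, rose by 2.01 with a wide spread at 24 HAS, with 4.75, 6.62 and 7.34, against 3.78, 4.86 and 4.04 at 3 HAS, where the arrays overlapped. Nuclear genes of the photosynthetic apparatus were lower for 13 of 35 and higher for 2, and 11 were above 5. LHCB4.2 (AT3G08940) was at 4.92, 4.40 and 4.86 at 24 HAS, against 5.74, 6.30 and 5.68 at 3 HAS. CHLM (AT4G25080), of chlorophyll synthesis, rose by 1.79. Of 19 genes listed as aquaporins, channels for water, 7 fell and 1 rose (9 and 0 after centring). The 19 include TIP1 (AT5G20350), which was taken in by its symbol and is not an aquaporin. The aquaporin PIP1B (AT2G45960) was at 10.45, 10.31 and 10.08 at 24 HAS, against 10.98, 10.98 and 11.04 at 3 HAS.

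Among enzymes of small molecules, UDP-glycosyltransferases (UGTs), which attach sugars, were lower for 19 of 57 and higher for 5, and 8 of them fell 3-fold, against 1.31% of all genes. UGT76E12 (AT3G46660) was at 7.68, 7.85 and 7.78 at 24 HAS, against 11.11, 10.43 and 10.64 at 3 HAS. UGT76B1 (AT3G11340), which glycosylates isoleucic acid, had 2.83, 4.75 and 4.27 at 24 HAS, against 7.97, 7.46 and 7.78 at 3 HAS. UGT76E11 (AT3G46670) had 5.33, 5.05 and 4.85 at 24 HAS, against widely spread values of 9.30, 6.40 and 7.71 at 3 HAS. Glutathione S-transferases were higher for 11 of 42 and lower for 6 (9 and 10 after centring). The counts were 7 higher without D RAD 24 HAS replicate 3 and 3 lower without D RAD 3 HAS replicate 1. GSTU14 (AT1G27140) was at 5.77, 5.83 and 6.05, against 3.79, 3.72 and 3.62, and GSTU19 (AT1G78380) at 10.66, 10.91 and 10.48, against 12.19, 12.04 and 12.35. GSTU24 (AT1G17170) had 3.11, 9.04 and 5.91 at 24 HAS, against 3.76, 3.44 and 4.14 at 3 HAS, and its arrays overlapped. Its difference of 2.24 was 0.727 without D RAD 24 HAS replicate 2 and 3.69 without D RAD 24 HAS replicate 1, and the call was lost without D RAD 24 HAS replicate 2 or 3 and without D RAD 3 HAS replicate 1 or 2.

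Of 18 antioxidant and repair enzymes 8 rose and 5 fell (8 and 8 after centring). The cytosolic ascorbate peroxidase APX1 (AT1G07890) was at 7.51, 8.16 and 7.87 at 24 HAS, against 5.19, 5.44 and 5.44 at 3 HAS, and the superoxide dismutases CSD1 (AT1G08830) and MSD1 (AT3G10920) rose by 1.56 and 1.35. The catalases CAT3 (AT1G20620) and CAT1 (AT1G20630), which split hydrogen peroxide in peroxisomes, fell by 1.27 and 0.76. The count of 5 lower genes was 3 without D RAD 24 HAS replicate 2, without D RAD 24 HAS replicate 3 or without D RAD 3 HAS replicate 1.

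The D RAD arrays of 7 and 12 HAS lie between these times. For the genes called 3-fold higher at 24 HAS the median level was 5.21, 6.62, 7.07 and 7.54 in time order, and for those called lower it was 8.33, 7.3, 6.59 and 6.15. At 7 HAS the median gene had gone 53.2% of the way of an increase and 55.0% of a decrease, and at 12 HAS 79.9% and 84.9%. The highest mean was at 24 HAS for 454 of the 563 increases, at 12 HAS for 92 and at 7 HAS for 17, and the lowest mean of the 279 decreases was at 24 HAS for 221, at 12 HAS for 53 and at 7 HAS for 5. These are descriptions, since the genes were chosen on the arrays of 3 and 24 HAS.

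Single genes took different courses. XTH15 had a mean of 10.35 at 7 HAS, which is close to the 10.36 of 24 HAS, and was highest with 11.48 at 12 HAS. EXPA1 had 3.66 at 7 HAS, 8.03 at 12 HAS and 6.12 by 24 HAS, so that it peaked at 12 HAS. AGP31 had 3.65 at 7 HAS and 6.36 at 12 HAS, both under its level of 24 HAS. AT3G10040 was down to 5.29 by 7 HAS and LBD41 to 7.63, close to their levels of 24 HAS. NRT1.8, at 10.48 and 9.43, and UGT74F2, at 9.30 and 7.46, were lower at each later time. Hsp70b had a mean of 10.5 at 7 HAS, against 10.53 at 3 HAS, and of 8.99 at 12 HAS.

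Groups differed in their course too. From 3 to 24 HAS the median level of the core hypoxia-response genes was 6.91, 6.67, 6.26 and 6.07. For cytosolic ribosomal proteins it was 10.37, 11.31, 11.55 and 11.69, so that most of the rise lay before 7 HAS. ER chaperones were at 5.32, 5.62, 6.72 and 7.97, with the larger steps after 7 HAS. Actins and profilins had 6.64, 7.78, 7.73 and 7.42. Compared with whole dry seeds, 494 of the 563 genes called higher had a mean at 24 HAS at least 3-fold above the dry seed, after the floor of 4. Of the 279 genes called lower, 182 were at least 3-fold under the dry seed at 24 HAS, and 49 had been at least 3-fold above it at 3 HAS. The genes were chosen on the arrays of 24 and 3 HAS, so these counts are favoured by the choice and are no test. The same counts over all genes were not taken. Tissue and isolation method both differ between the RAD and the dry seeds and cannot be told apart.

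**Figure D4:**
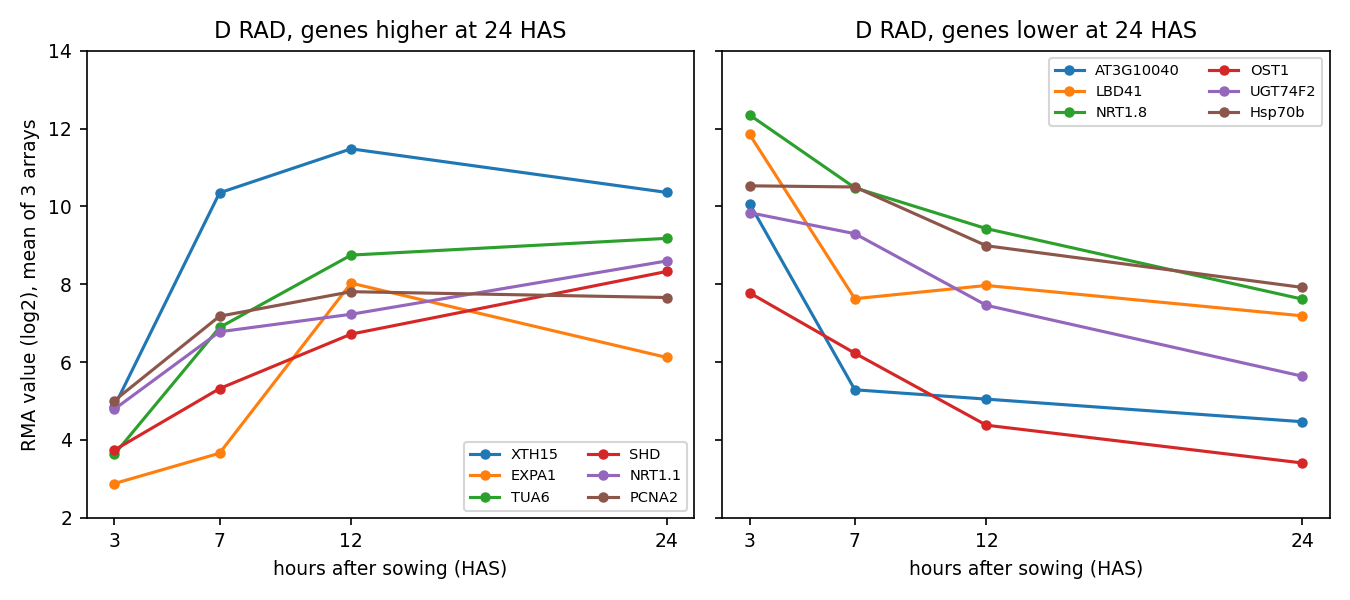
Mean RMA values (log2, 3 arrays each) over the time course of the D RAD (3, 7, 12, 24 HAS) of 6 genes higher (left) and 6 genes lower (right) at 24 than at 3 HAS. XTH15 and EXPA1 are highest at 12 HAS with 11.48 and 8.03, and AT3G10040 is down to 5.29 at 7 HAS.

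The change in the RAD was set beside that in the MCE over the same hours, which shares no arrays with it. By the same rule 477 genes (2.24%) were higher and 224 (1.05%) lower at 24 than at 3 HAS in the MCE. Both compartments shared 210 increases, which were 37.3% of those in the RAD and 44.0% of those in the MCE, and 128 decreases, which were 45.9% and 57.1%. The interaction of compartment and time had an adjusted p under 0.05 in 2491 genes (11.7%), among them 261 of the RAD increases and 117 of the RAD decreases. The median difference of the RAD increases was 2.01 in the RAD and 1.38 in the MCE, and that of the RAD decreases -1.97 and -1.51. Those genes were chosen on the RAD, so neither the smaller values in the MCE nor the number of interaction calls among them is a test. One gene, RHM1 (AT1G78570), which makes rhamnose for the cell wall and for flavonols, was 3-fold lower in the RAD and 3-fold higher in the MCE. It was named after its values were seen. RHM1 was at 5.38, 5.95 and 5.46 at 24 HAS in the RAD, against 7.53, 7.15 and 7.28 at 3 HAS, and its mean in the MCE was 10.05 at 24 HAS, against 8.37 at 3 HAS.

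Group medians in the RAD are set beside those in the MCE here, with no test of the difference between groups. The genes were chosen with their change in the RAD known, which is a part of the interaction, so that its p-values favour them. The ER chaperones had a median difference of 2.59 in the RAD and 2.3 in the MCE, and SHD rose by 4.59 and 4.14 (interaction adjusted p = 0.534 from limma). The heat shock chaperones had -1.32 in the RAD and -0.16 in the MCE, and for Hsp70b the difference of -2.61 in the RAD stood against -0.26 in the MCE (interaction adjusted p = 0.000452 from limma). The radicle marker MYB66 rose by 2.52 in the RAD, against 0.01 in the MCE (interaction adjusted p = 1.52e-07 from limma). The core histones had a median difference of 0.87 in the RAD and 0.14 in the MCE, and the genes of DNA replication 1.44 and 1.25. Histone HTA8 and PCNA1 rose by 3.57 and 2.16 in the RAD, against 0.44 in the MCE for each (interaction adjusted p = 2.09e-07 and 4.19e-05 from limma). In the MCE, PCNA1 lay under the median of 1.25 of the DNA replication list, and so it does not stand for that list. Of 19 genes of flavonol and phenylpropanoid synthesis 4 rose and 2 fell in the RAD (3 and 5 after centring), and their median difference was 0.00 in the RAD and 2.27 in the MCE. TT4 (AT5G13930), chalcone synthase, rose by 1.66 in the RAD, against 6.24 in the MCE (interaction adjusted p = 2.21e-09 from limma). NRT1.1 rose by 3.81 and 3.79, and OST1 had -4.37 and -4.62, and for neither did the interaction pass the test (adjusted p = 0.978 and 0.763 from limma).

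**Figure D5:**
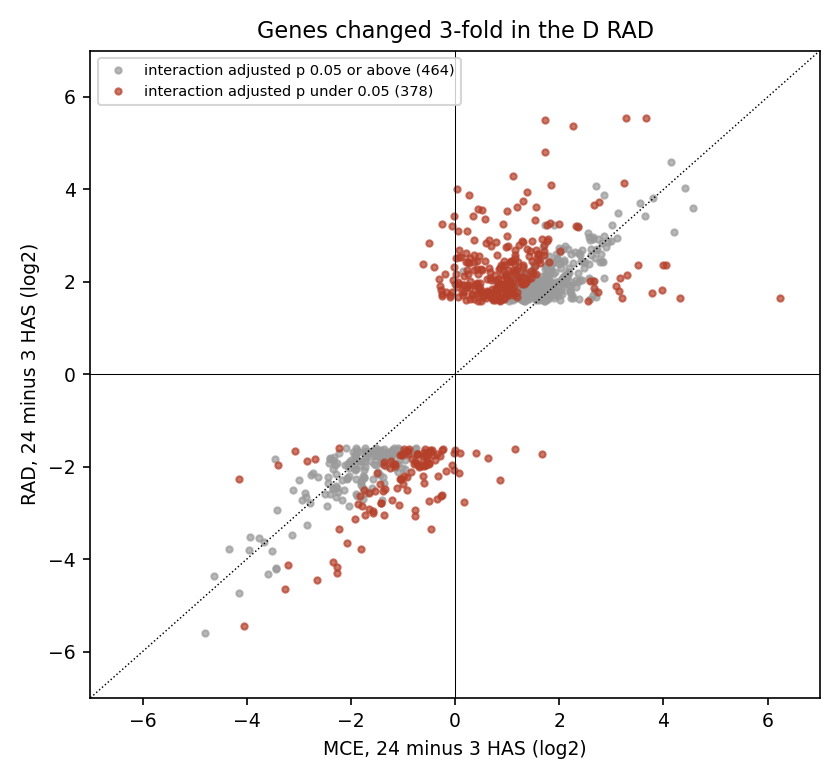
Difference between 24 and 3 HAS (log2) in the D RAD (vertical axis) and the D MCE (horizontal axis) of the 842 genes changed 3-fold in the RAD; red, interaction of compartment and time with an adjusted p under 0.05; the dotted line marks equal change. The empty band around 0 on the vertical axis follows from the choice of genes, and 1 gene was past 3-fold in opposite directions.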

How the data were processed

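Transcript levels were measured on Affymetrix ATH1 arrays, 1 per sample. The authors deposited log2 values, normalized by RMA over these and further chips with a custom chip definition file, of 21313 genes on 27 arrays, and all columns were used. Gene names came from a RefSeq table (assembly TAIR10.1), used for names only. No promoter or protein sequences were given, so the planned motif search was not run.

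Differences were tested with limma 3.58.1 (R 4.3.3) on all 27 arrays in 9 groups (18 residual degrees of freedom, prior 7.246), with Benjamini-Hochberg adjustment over all genes in each contrast and a threshold of 0.05. For the 3-fold rule, means under 4 were raised to 4. The script was tested on simulated data. The methods' t-test, other sample sets, floors, scalings and left-out arrays were alternatives. Gene lists were counted and given no set test. The members and lists were chosen with earlier results of these data known.

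Genes were named by rule: the 15 largest increases and the 15 largest decreases among 3-fold calls without overlap of arrays, the genes the study names, and in each list up to 4 called members per direction with the largest difference and the 3 with the highest mean. Other genes named are marker genes and RHM1. The number of arrays limits the precision.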

Additional observations from a re-analysis of the deposited data

Results flagged for a closer look

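Of the 15 largest increases and the 15 largest decreases in the RAD, 20 genes had a difference that was unlike that in the MCE by the interaction of compartment and time (limma, adjusted p under 0.05), against 11.7% of all genes. The genes were chosen for a large change in the RAD, which is a part of the interaction, so this number and its direction are favoured by the choice and are no test. Isolation method and compartment cannot be told apart, and each value here is the change in the RAD minus the change in the MCE (log2).
Among the increases, the adjusted p of these interactions lay between 6.21e-09 and 0.0459. XTH15 was higher in its change by 3.77, with 5.50 in the RAD and 1.73 in the MCE. For AT5G14450 the interaction was 3.11, from 5.37 in the RAD and 2.26 in the MCE. TUA6 had 5.55 in the RAD against 3.29 in the MCE, a difference of 2.26. AGP31 was higher in its change by 1.87, with 5.54 in the RAD and 3.67 in the MCE. For TUA2 the interaction was 3.09, from 4.81 in the RAD and 1.73 in the MCE. AT5G01210 had 4.30 in the RAD against 1.12 in the MCE, a difference of 3.18. AT4G01610 was higher in its change by 0.89, with 4.14 in the RAD and 3.24 in the MCE. For AT5G20950 the interaction was 2.26, from 4.09 in the RAD and 1.84 in the MCE. XYL1 had 3.94 in the RAD against 1.38 in the MCE, a difference of 2.56. FAD3 was higher in its change by 3.60, with 3.87 in the RAD and 0.27 in the MCE. For PAP10 the interaction was 2.46, from 3.76 in the RAD and 1.30 in the MCE. AT3G14220 had 3.72 in the RAD against 2.76 in the MCE, a difference of 0.96.

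Among the decreases, the adjusted p of these interactions lay between 9.01e-05 and 0.0234. AT4G10270 was more negative in the RAD by -1.38, with -5.44 in the RAD and -4.06 in the MCE. For LBD41 the interaction was -1.39, from -4.65 in the RAD and -3.27 in the MCE. PIRL8 had -4.45 in the RAD against -2.66 in the MCE, a difference of -1.79. TPPJ was more negative in the RAD by -2.02, with -4.30 in the RAD and -2.27 in the MCE. For AT5G39520 the interaction was -1.91, from -4.17 in the RAD and -2.27 in the MCE. AT3G27220 had -4.12 in the RAD against -3.21 in the MCE, a difference of -0.91. AT1G72430 was more negative in the RAD by -1.73, with -4.06 in the RAD and -2.34 in the MCE. For NIR1 the interaction was -1.96, from -3.78 in the RAD and -1.81 in the MCE.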

How the results depend on the processing

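Under the alternatives, no gene named by the rule turned its direction while called, and none of the 30 largest changes lost its call. Those 30 were chosen on the same arrays as the largest changes without overlap, so that they kept the call is largely given by the choice. Of 374 named genes called at any fold, 38 lost the call when 1 array was left out, 15 when the arrays were centred, 16 when they were quantile normalized again, 70 in the methods' t-test after Benjamini-Hochberg and 32 in Welch's form of it without adjustment. The 3-fold counts of 563 and 279 ranged from 544 to 609 and from 271 to 309 with 1 array left out. At any fold 4328 and 3822 ranged from 3937 to 4136 and from 3308 to 3628, and the interaction calls from 1956 to 2294. Centring each array gave 430 genes lower by 3-fold and 7244 lower at any fold. A 2-fold rule gave 1567 genes higher and 1028 lower in the RAD and 1372 and 782 in the MCE. With the methods' t-test and no adjustment 559 and 276 genes passed 3-fold, and after Benjamini-Hochberg 545 and 266, with 3000 and 2495 at any fold. Deviations of same-numbered arrays from their group means correlated at 0.123, 0.036 and -0.054. Differently numbered arrays were not set beside them, so these values cannot exclude pairing. The numbers were not taken as pairs because the labels do not state that they are. The block made 3 named genes lose the call on 27 arrays and 6 on 12. With the replicate block in the fit the counts were 563 and 279 on 27 arrays and 562 and 279 on the 12 RAD arrays. Raising means to 5 gave 425 and 243. Genes near the noise of the array, with means under 5, are where fold changes are least certain.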

Other observations

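Further groups were described in the D RAD, with the same test. Of 17 circadian clock genes and outputs 4 were higher and 3 were lower at 24 HAS (4 and 6 after centring, and 5 lower without D RAD 3 HAS replicate 2). GRP7 (AT2G21660), an RNA-binding protein under clock control, was at 12.53, 12.68 and 12.52 at 24 HAS, against 10.96, 10.90 and 11.21 at 3 HAS. ELF4 (AT2G40080), of the evening complex, had 8.21, 8.51 and 8.41 at 24 HAS, against 10.10, 9.94 and 9.78 at 3 HAS. Of 19 genes of sugar transport and sucrose breakdown 3 rose and 4 fell. SUC2 (AT1G22710), the sucrose carrier of the phloem, was at 7.96, 8.17 and 7.96 at 24 HAS, against 5.55, 5.80 and 5.48 at 3 HAS. In the synthesis of galactinol and raffinose, GolS1 (AT2G47180) fell by 1.53 and STS (AT4G01970) rose by 0.90. The nitrile specifier genes NSP2 (AT2G33070) and NSP5 (AT5G48180), whose proteins act in glucosinolate breakdown, fell by 2.7 and 1.97. NSP2 had a mean of 12.78 in dry seeds, and was at 5.76, 5.35 and 6.19 at 24 HAS, against 8.54, 8.33 and 8.52 at 3 HAS. Of 185 cytochromes P450, 15 were higher and 23 were lower (11 and 70 after centring).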
